A study of Mus musculus with 10 samples.

Results

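Cytosolic ribosomal protein genes encode the proteins of the ribosomes that translate nuclear messages. They were found by symbol in the array's platform annotation: Rpl or Rps followed by a number and at most one letter a, x or y, together with Rplp0, Rplp2 and Rpsa. Each gene was represented by 1 probe set (a group of short probes that reads 1 transcript), the one with the highest mean over all arrays. The search gave 42 genes among the 18193 genes measured. They were examined in brown adipose tissue, the heat-producing fat of rodents, from 5 wild-type mice (BAT_WT, WT below) and 5 mice labelled SIRT3 KO (BAT_KO, KO below), with 1 array per mouse. SIRT3 is a mitochondrial deacetylase, and the KO label means a loss of its gene. Per the labels, WT and KO mice were untreated littermates of about 1 year on a 129 background, so both groups share strain and age. The sources used here do not name the deleted part of Sirt3, the cells that lost it or the sex of the mice.

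A ribosome has a large 60S subunit, which joins amino acids, and a small 40S subunit, which reads the message. Proteins named Rpl belong to the 60S subunit and proteins named Rps to the 40S subunit. Their messages are abundant in nearly every cell, are made in matched amounts, and usually start with a run of pyrimidines (C and T) called a 5' terminal oligopyrimidine tract. Through that tract the kinase mTORC1 and the protein LARP1 control how strongly the messages are translated. Such control acts on translation, which arrays of RNA do not measure.

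A run of pyrimidines near the start, which the choice of genes did not use, was more frequent in these genes than over all promoters. The RefSeq promoter table (GRCm38.p6) held 43 promoters of 300 bases for 37 of the 42 genes. A pyrimidine tract, searched on the gene's strand as C followed by at least 4 bases that are C or T and starting within 20 bases of the annotated start, was present in 33 of the 43 promoters (76.7%). The same search found it in 47.5% of all 32851 promoters in the table. The motif CCGGAAGT, known as a site for ETS family factors and searched on both strands over the 300 bases, was present in 9 of the 43 (20.9%) and in 3.9% of all promoters. TATA, searched on the gene's strand between 40 and 16 bases before the start, was present in 6 of the 43 (14.0%) and in 5.9% of all promoters. The opposite strand of CCGGAAGT contains a short run of pyrimidines, so the first and second searches can overlap. The tract search also counts runs that end before the annotated start, as in Rpl4, so it does not show that a message begins with a tract. These matches describe letters and do not show that a factor binds there.

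The windows below are those of genes that the results turn on, and each holds 30 bases before the annotated start and 20 bases from it onward, in GRCm38.p6. Capitals mark the longest pyrimidine tract found by that search, or the first of those equally long; shorter matches are not marked. Rps27 lies on the minus strand at chr3:90213629-90213678, Rps6 on the minus strand at chr4:86857348-86857397, Rplp2 on the plus strand at chr7:141447621-141447670, Rpl12 on the plus strand at chr2:32961682-32961731 and Rpl4 on the plus strand at chr9:64173357-64173406. Rpl39 lies on the minus strand at chrX:37085203-37085252 and Rpl37 on the plus strand at chr15:5116583-5116632. Each window spans promoter and the first transcribed bases.
Rps27: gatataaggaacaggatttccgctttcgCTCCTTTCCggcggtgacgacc
Rps6: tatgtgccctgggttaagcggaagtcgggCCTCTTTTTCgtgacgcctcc
Rplp2: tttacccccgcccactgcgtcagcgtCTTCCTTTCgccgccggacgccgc
Rpl12: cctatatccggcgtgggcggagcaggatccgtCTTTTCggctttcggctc
Rpl4: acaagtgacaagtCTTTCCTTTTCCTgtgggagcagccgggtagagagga
Rpl39: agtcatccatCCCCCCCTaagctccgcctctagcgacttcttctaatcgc
Rpl37: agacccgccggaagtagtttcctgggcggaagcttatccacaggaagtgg
The tracts of Rps27, Rps6 and Rplp2 begin 2, 1 and 4 bases before the annotated start and run across it, and that of Rpl12 begins at base 3. In Rpl4 the tract lies upstream of the annotated start. Rpl39 has its marked tract upstream and a match of the same length, left in lower case, after the start. No tract was found near the start of Rpl37.

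How well the array reads these genes differed between them. Of 79 proteins of the cytosolic ribosome looked for, 42 were members, 27 were listed only on probe sets that name several genes, and 2 (Fau and Rps3a1) had a probe set of their own but a symbol outside the rule. The other 8 are not analysed here. Probe set names ending in _a_at, _x_at or _s_at can match several transcripts, and such sets read 16, 11 and 2 of the 42 genes, while 13 were read by plain _at sets. Ribosomal protein genes have many processed pseudogenes, so a signal from any of these sets may hold RNA of near-identical copies. Mean log2 signals fell into a bright set of 33 genes from 11.34 to 13.43 and a dim set of 9 genes from 3.49 to 9.06. All 33 bright genes were among the brightest 500 genes of the array, and this division at a mean of 10 was made after the values were seen. The dim genes were Rps16, Rpl14, Rpl12, Rps27, Rps6, Rpl27a, Rps25, Rpl39 and Rpl37. All 9 dim genes were also listed on a probe set of several genes with a mean over 10, whose signal may come from the other genes listed. Signals of different probe sets do not rank transcripts, so none of these levels shows how much message was present.

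**Figure D1:**
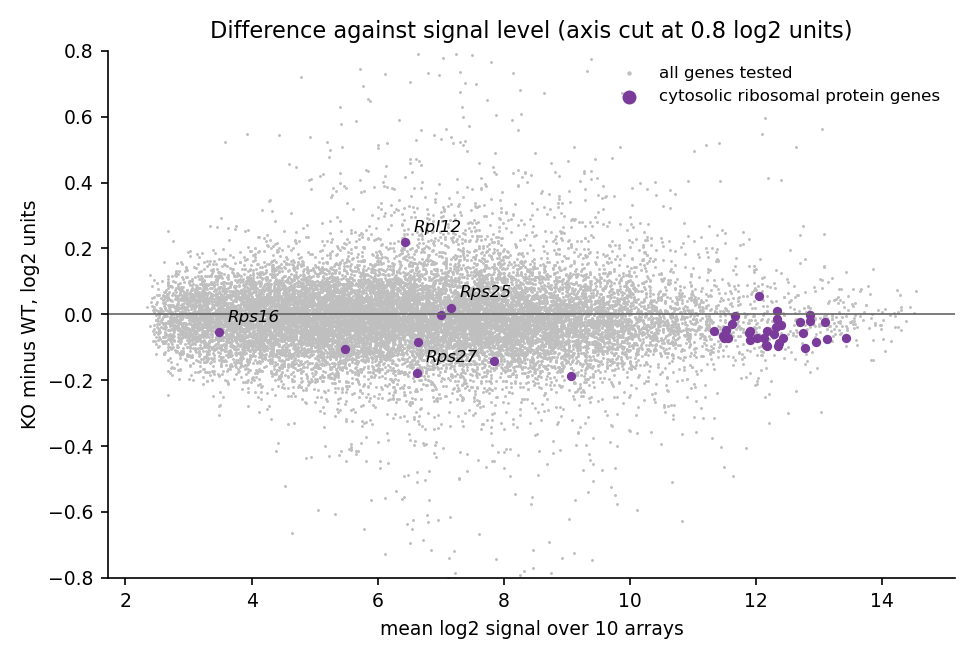
Each point is 1 gene: the x axis is its mean log2 signal over 10 arrays and the y axis its difference, KO minus WT, in log2 units, with the 42 ribosomal protein genes in purple and all 18193 genes in grey. The 33 bright genes form a tight group between 11.34 and 13.43, mostly just below 0, while the 9 dim genes spread from -0.19 to 0.22; the y axis stops at 0.8 either way and leaves out genes beyond it.

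All 10 arrays resembled each other, with Pearson correlations across probe sets from 0.988 to 0.997. Sirt3 itself was not lower in arrays labelled KO: its log2 signal was 10.03 to 10.28 in WT and 10.22 to 10.40 in KO, and a probe set outside the deleted part would not check the labels. Brown fat markers were present, with Ucp1, the uncoupling protein, at 13.96 to 14.28 and Cidea, a lipid droplet protein of brown fat, at 14.15 to 14.23. Skeletal muscle markers, taken as a sign of RNA from other cells, varied most, with array means of 7.40 to 11.44 in WT and 5.45 to 10.63 in KO over 19 of 19 measured genes. Among them Acta1 ranged from 6.21 to 13.92, but Myl1 only from 11.09 to 13.04, and the source of this RNA was not tested. In bulk tissue, fewer cells of a type and less RNA per cell cannot be told apart.

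Ribosomal protein genes were on average slightly lower in arrays labelled KO, and none of them passed the test. Of the 42, 38 had a lower mean in KO and 4 a higher one, against 56.1% of all genes tested having a lower mean. The median difference was -0.059 log2 units (-4.03% in signal), against -0.013 over all genes. Without WT 4 and WT 5, the arrays highest in these same genes, the median was -0.019, with 30 of 42 lower. With only plain _at probe sets, 12 of the 22 genes left were lower (54.5%, against 56.1% of all genes in that fit; median -0.020). By limma, 0 of the 42 had an adjusted p under 0.05, and 0.0% of all genes did; the smallest adjusted p among them was 0.914. Only Rps27 and Rpl37 (2 of 42), both lower, had an unadjusted p under 0.05, where 2.83% of all genes were lower and 1.85% higher at that level. Groups did not fully separate in any of the 42, against 0.627% of all genes that did.

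The intervals, which are not adjusted for the number of genes, limit how large a change in array signal could be for single genes. The 95% confidence intervals reached a median of 0.12 log2 units to either side of the estimate for the 42 genes and 0.169 over all genes. In all 33 bright genes that interval lay inside a change of 0.3 log2 units either way, and in 25 of them inside 0.2. Spread between mice of a group was also small for bright members, with a median SD of 0.067 log2 units (from 0.04 for Rps15 to 0.123 for Rps28), against 0.124 over all genes. Dim members were less precise, with a median SD of 0.172.

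By subunit, 21 of 22 60S genes had a lower mean in KO (median -0.058), and 17 of 20 40S genes (median -0.063). The difference between subunits was not tested.

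**Figure D2:**
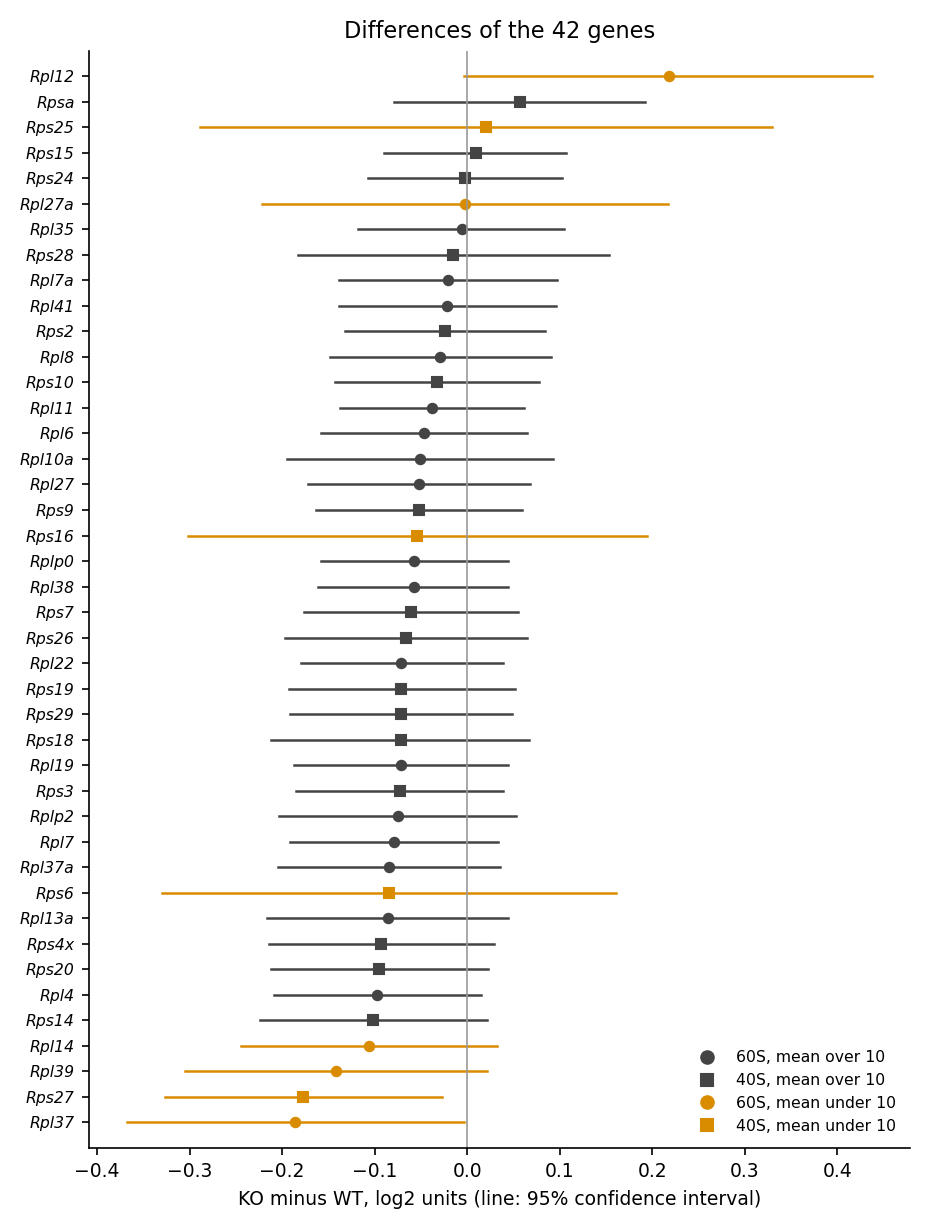
Differences of the 42 genes, KO minus WT in log2 units on the x axis with 95% confidence intervals from limma as lines (circles for 60S, squares for 40S, orange for genes with a mean signal under 10). Only the intervals of Rpl37 (-0.368 to -0.003) and Rps27 (-0.327 to -0.027) stay on one side of 0 before adjustment, and those of the dim genes are mostly wider.

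Among 60S proteins, Rpl37, a small zinc-binding protein, was at 9.13, 8.99, 9.01, 9.26 and 9.38 in WT arrays 1 to 5 and at 9.05, 8.88, 9.10, 8.87 and 8.94 in KO arrays 1 to 5. WT 4 and WT 5 were highest and the groups overlapped. Its difference was -0.186 ± 0.083 log2 units (SE; n = 5 in each group; unadjusted p = 0.047, adjusted p of limma 0.914), and -0.075 without WT 4 and WT 5. Rpl39, one of the smallest proteins of the ribosome, lines the tunnel through which new proteins leave. Its signals were 7.93, 7.93, 7.74, 7.96 and 7.97 in WT and 7.82, 7.63, 7.98, 7.72 and 7.67 in KO. KO 3 was the highest of all 10, and the difference was -0.142 ± 0.074.

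Rpl4, which also lines the exit tunnel, was at 12.43, 12.41, 12.36, 12.46 and 12.32 in WT and 12.20, 12.28, 12.37, 12.34 and 12.30 in KO. Here 3 of the 5 WT arrays lay above every KO array, and WT 5 was the lowest of the WT group, unlike in most members. The difference was -0.097 ± 0.051 with all arrays and -0.102 without WT 4 and WT 5. Rpl14 was read by a dim probe set at 5.48, 5.49, 5.60, 5.55 and 5.55 in WT and 5.46, 5.61, 5.42, 5.34 and 5.30 in KO, a difference of -0.106 ± 0.063 with groups that overlapped.

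Rpl12 went the other way on the dim probe set used. Its product sits at the base of the stalk that recruits translation factors, beside Rplp0. It was at 6.40, 6.27, 6.21, 6.39 and 6.36 in WT and 6.71, 6.37, 6.23, 6.71 and 6.71 in KO. KO 1, KO 4 and KO 5 lay above all WT arrays, while KO 2 and KO 3 lay within the WT range. The difference was 0.218 ± 0.10 (interval -0.003 to 0.438; unadjusted p = 0.052, adjusted p of limma 0.914), the largest positive difference among the 42, from a probe set with a mean of 6.43. Every probe set with a mean over 10 that lists Rpl12 among several genes was lower in KO, though its signal may come from the other genes listed.

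The other stalk genes followed the majority. Rplp0, the protein that anchors the stalk and a common reference gene in quantitative PCR, was at 11.86, 11.88, 11.87, 11.95 and 11.96 in WT and 11.80, 11.80, 11.87, 11.89 and 11.88 in KO. WT 4 and WT 5 were the 2 highest of 10, and the difference was -0.057 ± 0.046 (-0.158 to 0.044). Rplp2, one of the acidic stalk proteins, was at 13.22, 13.14, 13.03, 13.21 and 13.23 in WT and 13.17, 13.07, 13.16, 13.09 and 12.98 in KO, a difference of -0.075 ± 0.058. Rpl37a, another zinc-binding protein, had a WT mean of 12.99 and a KO mean of 12.91, and Rpl13a, which also serves in silencing some inflammatory messages, had 12.40 and 12.32. Both were highest in WT 4 and WT 5. Rpl11, which binds the p53 regulator MDM2 when ribosome assembly fails, differed least of these, at 12.34 ± 0.045 (SD, n = 5) in WT and 12.30 ± 0.036 in KO.

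Among 40S proteins, Rps27, a zinc-finger protein, had the smallest unadjusted p of the 42. It was at 6.68, 6.52, 6.66, 6.86 and 6.85 in WT and 6.51, 6.54, 6.61, 6.49 and 6.53 in KO. Of the WT arrays 4 lay above every KO array and WT 2 lay among them. The difference was -0.177 ± 0.068 (-11.6% in signal; unadjusted p = 0.025, adjusted p of limma 0.914), and -0.086 without WT 4 and WT 5. Its probe set was dim, with a mean of 6.62.

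Rps14, which lies on the platform of the small subunit, was at 12.77, 12.74, 12.77, 12.94 and 12.94 in WT and 12.77, 12.69, 12.78, 12.71 and 12.71 in KO. WT 4 and WT 5 stood above the other 8 arrays, which lay between 12.69 and 12.78. The difference of -0.102 ± 0.056 became -0.031 without those 2 arrays. Rps20, a protein of the head of the subunit, was at 12.26, 12.15, 12.13, 12.29 and 12.25 in WT and 12.16, 12.06, 12.18, 12.15 and 12.05 in KO, a difference of -0.095 ± 0.054. Rps4x, encoded on the X chromosome, was at 12.19, 12.18, 12.10, 12.31 and 12.23 in WT and 12.11, 12.14, 12.15, 12.16 and 12.00 in KO. In this gene 4 of 5 WT arrays lay above the highest KO array, and the difference was -0.093 ± 0.055.

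Rps19, the gene most often mutated in Diamond-Blackfan anaemia, differed by -0.071 ± 0.056, and Rps29, the brightest of the 42 and also a disease gene of that anaemia, by -0.072 ± 0.054. Rps6, whose protein is the classical substrate of S6 kinase, was at 6.48, 6.60, 6.53, 7.01 and 6.76 in WT and 6.59, 6.60, 6.57, 6.35 and 6.85 in KO. Its difference of -0.084 ± 0.11 rested on WT 4 and WT 5, without which it was 0.055. Rps16, read at 3.08 to 3.68, was the dimmest member and differed by -0.054 ± 0.113. Rps2, at the entry of the message channel, differed by -0.024 ± 0.049 and Rps24 by -0.002 ± 0.048, and both signs turned under some alternatives.

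The remaining members with a higher mean in KO were 40S genes. Rpsa, whose protein is also known as a laminin receptor, was at 11.99, 12.15, 11.90, 12.01 and 12.01 in WT and 12.16, 11.98, 12.15, 12.07 and 11.97 in KO, a difference of 0.057 ± 0.062 with groups that overlapped. Rps15, from the head of the subunit, differed by 0.009 ± 0.045 and had the tightest values of the 42. Rps25, needed by some viral internal entry sites, had the widest: 6.92, 6.81, 7.10, 7.36 and 7.57 in WT and 7.33, 7.26, 6.88, 7.17 and 7.23 in KO, a difference of 0.020 ± 0.141. Signs turned under some alternatives for all 3.

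**Figure D3:**
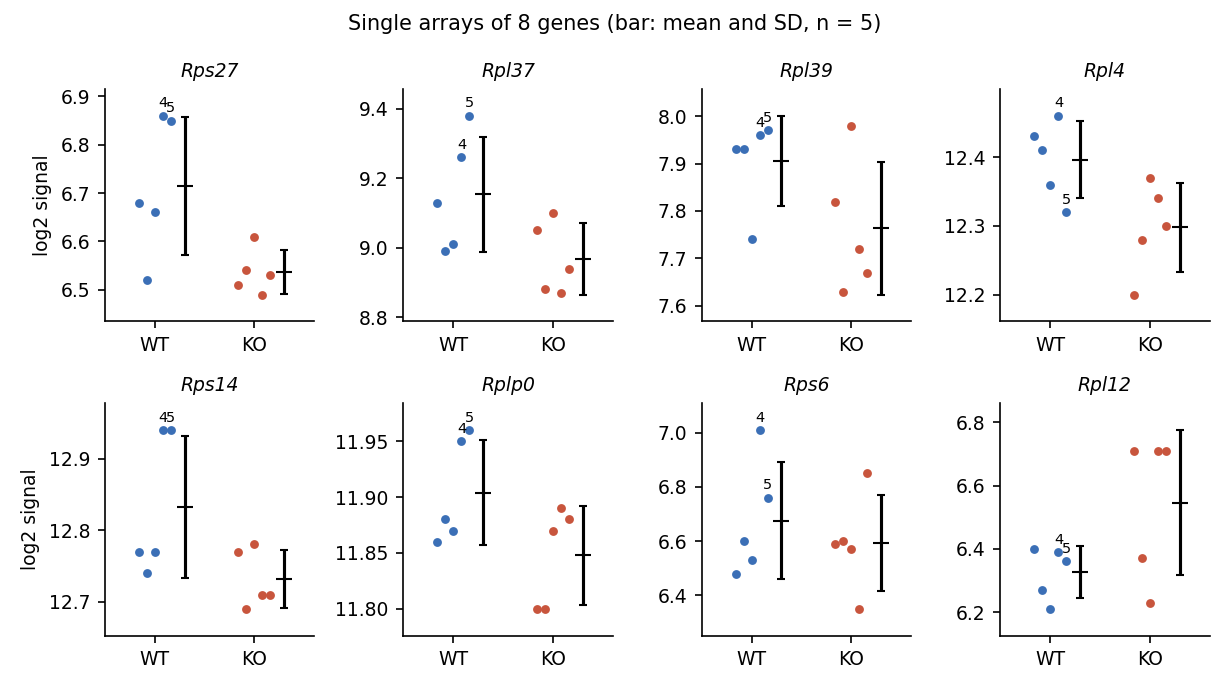
Log2 signal of 8 genes in single arrays (points), WT in blue and KO in red, with the mean and SD of 5 arrays as bars and WT 4 and WT 5 marked by their number. The scales differ between panels and do not start at 0; WT 4 and WT 5 are the 2 highest WT arrays in Rps27, Rpl37, Rpl39, Rps14, Rplp0 and Rps6, while in Rpl12 3 KO arrays lie above all WT arrays.

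The members varied together, and 31 of the 42 were highest in WT 4 or WT 5. For each gene the mean over 10 arrays was subtracted, and the median over the 42 genes was taken in each array. These medians were 0.005, -0.009, -0.018, 0.117 and 0.079 log2 units in WT 1 to WT 5. They were -0.013, -0.039, 0.014, -0.033 and -0.072 in KO 1 to KO 5. WT 4 and WT 5 stood above the other 8, and KO 5 was lowest. In WT 4, 37 of the 42 genes were above their own mean, and in WT 5, 36, against 8 in KO 2, 8 in KO 4 and 9 in KO 5. The highest value of a gene fell in WT 4 for 20 genes and in WT 5 for 11, and the lowest in KO 5 for 16.

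WT 1, WT 2 and WT 3 lay among the KO arrays by this measure. In the fit without WT 4 and WT 5, with its member median of -0.019, all genes had a median of -0.010 and 54.8% were lower. None of the 42 then had an unadjusted p under 0.05, and the smallest was 0.06. WT 4 and WT 5 are the arrays highest in these same genes, so leaving them out was bound to move KO minus WT up in most members. That fit also rests on only 8 arrays, so it is a description and not a separate check. Over all genes the same medians by array lay between -0.018 and 0.020.

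**Figure D4:**
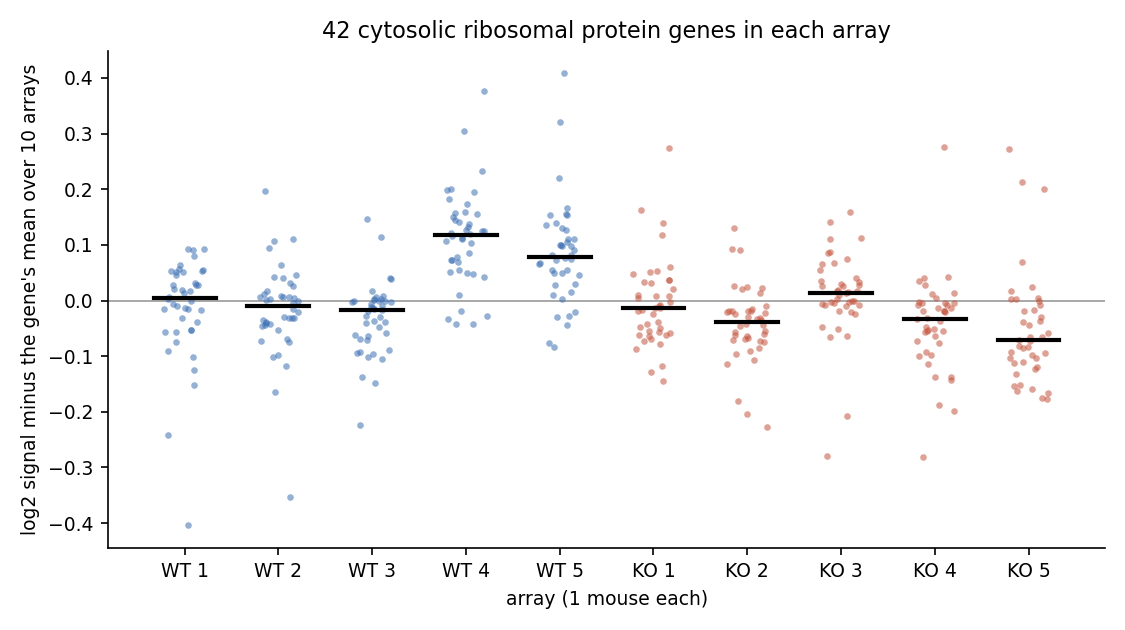
Each point is 1 of the 42 genes in 1 array, as log2 signal minus that gene's mean over 10 arrays, with the median as a black bar (WT blue, KO red). The medians of WT 4 (0.117) and WT 5 (0.079) stand above the other 8, which lie between -0.072 and 0.014.

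Some other measures moved with those arrays and others did not, and their part in the result was not tested. The mean of brown adipocyte markers (9 of 10 measured) was 11.76 in WT 4 and 11.88 in WT 5, against 11.31 to 11.61 in the other WT arrays and 11.30 to 11.54 in KO. Over all arrays Dio2 (8.65 to 11.32) and Elovl3 (9.42 to 11.55) varied most in this list. Cidea (14.15 to 14.23) and Cox7a1 (12.78 to 12.95) varied little, so the mean does not show a share of brown adipocytes. The mean of general adipocyte markers (7 of 8) was 11.60 in WT 4 and 11.41 in WT 5, against 11.69 to 11.96 in the other WT arrays and 11.47 to 11.93 in KO. In that list Lep (5.75 to 10.23) and Retn (7.65 to 9.91) varied most and Fabp4 (14.50 to 14.55) least, so its mean shows no share of cells either. The 3' minus 5' signal of Actb, a sign of RNA quality, was 0.80 in WT 4 and 0.77 in WT 5, against 0.33 to 0.54 in the other WT arrays and 0.50 to 0.77 in KO. That of Pcx was 2.96 to 3.44 in WT and 2.77 to 2.95 in KO, so every WT array lay above every KO array. Here WT 1 was highest (3.44), with WT 4 at 3.31 and WT 5 at 3.40. The groups overlapped for Gapdh (-0.13 to -0.1 in WT, -0.15 to -0.12 in KO) and Tfrc (1.43 to 1.79 in WT, 1.44 to 1.59 in KO). Muscle markers averaged 9.10 in WT 4 and 7.40 in WT 5, where the ribosomal medians were 0.117 and 0.079. They averaged 5.66 in KO 1 and 5.45 in KO 3, where the ribosomal medians were -0.013 and 0.014. In the other WT arrays muscle markers averaged 10.62 to 11.44, with ribosomal medians of -0.018 to 0.005. In the other KO arrays they averaged 9.58 to 10.63, with ribosomal medians of -0.072 to -0.033. WT 4 and WT 5 were thus the lowest of WT in muscle markers and the highest in ribosomal median, as were KO 1 and KO 3 of KO. With the muscle mean as a covariate 38 of 42 genes were lower, with a median of -0.080, against -0.018 over all genes, and 0 were called. In that limma fit 6 of the 42 had an unadjusted p under 0.05, against 1598 of all 18193 genes. The smallest adjusted p among the 42 was 0.394. Lymphocyte markers (9 of 11), whose cells are rich in ribosomal messages, averaged 5.01 in WT 4, 5.11 in WT 5 and 5.02 to 5.24 in the other arrays. Nerve markers (3 of 5) averaged 7.19 in WT 4 and 7.35 in WT 5, the lowest of the 10 arrays, against 7.45 to 7.59 in the other 8. The genes measured were S100b, Th and Ncam1. S100b varied most, down to 9.86 around a mean of 10.63, while Th (5.43 to 5.67) and Ncam1 (6.04 to 6.35) varied little. The nerve mean therefore rests mostly on S100b, and whether nerve cells differed was not tested. Erythroid markers (3 of 5) averaged 5.45 in WT 4 and 5.28 in WT 5, against 5.30 to 5.59 in the other 8. Endothelial markers (10 of 10) averaged 8.33 in WT 4 and 8.11 in WT 5, macrophage markers (8 of 9) 7.01 and 7.23, and fibroblast markers (8 of 8) 8.71 and 8.36. The other 8 arrays spanned 7.93 to 8.40, 6.83 to 7.22 and 8.10 to 8.72 for these 3 lists.

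Across the 10 arrays the Pearson correlation of a gene with the mean of all other members had a median of 0.72, and 23 genes exceeded 0.7. It was highest in Rps14 (0.97), Rpl37a and Rpl13a (0.93 each), and lowest in Rps24 (-0.42), Rpl12 (-0.36) and Rpsa (0.01). The median Spearman correlation was 0.66. The median Pearson correlation was 0.68 after removing group means and 0.48 over the 8 arrays without WT 4 and WT 5. These values describe 10 arrays that share a normalization, and genes read by probe sets that match several transcripts may share part of their signal.

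Further bright probe sets of the same genes were also highest in WT 4 (0.100) and WT 5 (0.055) and lowest in KO 5 (-0.081). The 22 members with several probe sets had 52 others, and of the 26 with a mean over 10, 24 were lower in KO (median -0.068). Of the 26 dimmer ones, 15 were lower (median -0.016). In 10 of the 22 genes at least 1 probe set had the opposite sign to the one used. Rps24 is an example, since its 2 dim plain _at sets gave -0.164 and 0.150 around a value of -0.002 for the bright set used. In Rps28, by contrast, the set used gave -0.015 and its other sets, nearly as bright, gave -0.099 and -0.092. For Rpl13a the set used gave -0.086 and others -0.085 and -0.092, but a dim one (mean 7.91) gave -0.233 ± 0.067.

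Probe sets that list several genes, among them a ribosomal protein gene, were kept out of the comparison and numbered 110. Of the 79 with a mean over 10, 77 were lower in KO (median -0.054), and of the 31 dimmer ones 13 were, where 51.9% of all probe sets were lower. In a fit of every probe set 0 of the 110 passed the test. The medians of the 79 bright ones by array were 0.110 in WT 4 and 0.070 in WT 5, and -0.088 to 0.006 in the other 8. They may read the same transcripts as the members, so they are not separate evidence. The 19 of them that list one of the 9 dim members and have a mean over 10 were all lower, from -0.205 to -0.018, although Rpl12 and Rps25 are among those 9.

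The count of lower members differed with the kind of probe set. All 29 members read by _a_at, _x_at or _s_at sets had a lower mean in KO (median -0.066), and 9 of 13 read by plain _at sets (median -0.054). Signal level differed as well, since 28 of those 29 had a mean over 10, but only 5 of the 13. Among members with a mean over 10, all 28 of the first kind and 3 of the 5 plain _at members were lower. In the fit of plain _at sets alone several bright genes, such as Rps24 and Rps4x, are lost or read by a dim set instead. That fit also drops _a_at sets, so it does not single out sets that match several genes.

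Genes that build, drive or regulate the ribosome were read from the same fit, in lists named by function. None of their genes passed the test (adjusted p of limma at least 0.914), and only the biogenesis (1), mTORC1 (3) and mitochondrial ribosomal (3) lists held genes with an unadjusted p under 0.05. The counts of lower genes below stand beside 56.1% lower over all genes tested. Of 30 measured translation initiation factors 19 were lower (median -0.017), among them Eif3c and Eif3m, subunits of the factor eIF3, at -0.10 ± 0.047 and -0.12 ± 0.061, while the poly(A)-binding protein gene Pabpc1 was at 0.14 ± 0.075 and Eif3d at 0.06 ± 0.051. Of 13 elongation and termination factors 6 were lower and 7 higher (median 0.017), with Eef1b2 at -0.07 ± 0.058 and Gspt2 at -0.13 ± 0.11 on the lower side, and Eif5a2 at 0.08 ± 0.062 and Gspt1 at 0.04 ± 0.057 on the higher.

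Ribosome biogenesis genes, which build the particles in the nucleolus, were split evenly, with 32 of 63 lower. Ebna1bp2 was at -0.15 ± 0.052 and Nvl at -0.14 ± 0.084, while Polr1b, a subunit of RNA polymerase I, was at 0.15 ± 0.076 and Nmd3, the export adaptor of the 60S subunit, at 0.11 ± 0.059. KO 5, the array lowest in ribosomal protein genes, was the highest in this list, with a median deviation of 0.139 against -0.061 to 0.050 in the other 9.

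Other messages known to carry a 5' terminal oligopyrimidine tract were lower in 16 of 19 measured genes, with a median of -0.032. Btf3, part of a nascent chain complex, was at -0.09 ± 0.048 and the initiation factor subunit Eif3f at -0.09 ± 0.049, while Vim, the intermediate filament vimentin, was at 0.12 ± 0.11. By array, this list's median deviation was highest in WT 4 (0.085) and next in KO 5 (0.067). The list shares some genes with the factor lists above, among them Eef1b2 and Pabpc1.

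Of 35 measured genes of the mTORC1 pathway and its regulators 25 were lower (median -0.042). The list mixes drivers and inhibitors of mTORC1, so this count gives no direction for the pathway. Lamtor1, a lysosomal anchor of mTORC1, was at -0.18 ± 0.049 and Sesn1, a leucine sensor, at -0.31 ± 0.12, while Myc, a transcriptional driver of ribosome production, was at 0.72 ± 0.29 and Deptor, an inhibitor of mTOR, at 0.40 ± 0.22. Deptor was at 0.02 without WT 4 and WT 5. Mitochondrial ribosomal protein genes, which serve a separate ribosome, were lower in 61 of 76 (median -0.053), but by array they differed from the cytosolic ones: WT 5 (0.111) and WT 3 (0.065) were highest, WT 4 was at 0.008 and KO 4 was lowest (-0.127). Among them Mrps18a was at -0.24 ± 0.093 and Mrpl1 at -0.13 ± 0.054, and Mrps15 at 0.12 ± 0.092 and Mrpl52 at 0.06 ± 0.063.

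**Figure D5:**
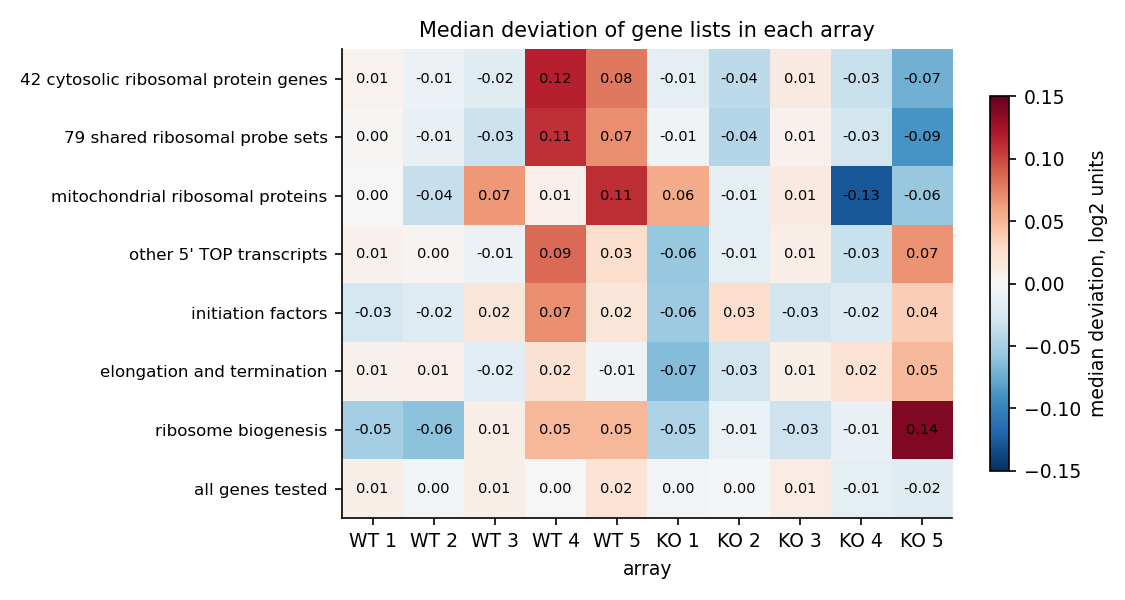
Median deviation of each gene list (rows) in each array (columns), in log2 units, after subtracting each gene's mean over 10 arrays; red is above and blue below 0. The cytosolic ribosomal protein genes and the shared probe sets that list them are highest in WT 4 and WT 5 and lowest in KO 5, while ribosome biogenesis genes are highest in KO 5 (0.139).

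Paralogs and ribosomal proteins outside the rule were measured for 8 of 14 listed genes, of which 7 were lower (median -0.069) and 0 passed. Fau and Rps3a1, which encode 40S proteins, differed by -0.12 ± 0.069 and -0.07 ± 0.053 and, like the members, were highest in WT 4 (12.02 and 12.44). Without WT 4 and WT 5 both were at -0.03. Rps27l, the paralog of Rps27, was at -0.003 ± 0.052, and Rpl22l1, the paralog of Rpl22, at -0.064 ± 0.068. Rpl39l, a paralog of Rpl39 known from testis, was at 0.13 ± 0.29. Rpl3l, the form of Rpl3 known from striated muscle, gave 7.83, 8.31, 7.93, 6.42 and 5.50 in WT and 4.87, 7.81, 5.28, 7.71 and 6.75 in KO. Its 3 lowest arrays, KO 1, KO 3 and WT 5, were those lowest in skeletal muscle markers.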

How the data were processed

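Affymetrix arrays of brown adipose RNA from 10 mice were used. The authors' deposited values are log2 signals, made with RMA per the submitters' processing notes, which corrects background, normalizes arrays to each other and summarises probes; the sources used here name neither software nor settings. A change common to most genes would be hidden by that step, and RMA gives no detection floor. Array medians lay between 5.58 and 5.61, and the number of arrays limits the precision.

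Of 45101 probe sets, 64 were controls, 34945 had 1 gene in the platform annotation, 932 several and 9160 none. Only those with 1 gene were used, the one with the highest mean for each of 18193 genes. KO minus WT differences were fitted over all genes with limma 3.58.1 (lmFit, eBayes, no covariate, two-sided) in R 4.3.3, adjusted by Benjamini and Hochberg, and called at an adjusted p under 0.05. The fit was tested on simulated data. Lists and members are described by counts and medians, with no test over a list. Sample titles gave the groups, with 1 mouse per array; p-values measure the spread between these arrays.

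Named members were the 8 lower and 4 higher with the smallest unadjusted p, the 4 brightest, the 4 dimmest, the 4 with the largest spread, the 3 with the highest and the 3 with the lowest correlation with other members, and some fixed genes; from each list, the 2 with the smallest unadjusted p in each direction. Rpl27a, Rps28, Rpl3l, Rps27l and Rpl22l1 are named outside that rule after their values were seen. Members and lists were chosen with earlier results of these data known. Start-site windows were cut from the RefSeq table of GRCm38.p6, and figures drawn with matplotlib 3.10.9.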

Additional observations from a re-analysis of the deposited data

Results flagged for a closer look

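In 23 named genes and the median over all 42, WT and KO arrays were searched for a value far from the other 4 of its group, by Dixon's test with its critical value for 5 samples of 0.71. Chance alone gives about 1 such value in 20 groups, and 4 were found in 48. Rps15 was 12.381 in WT 4, where the other WT arrays lay between 12.310 and 12.316. Rpl39 was 7.743 in WT 3, below 7.927 to 7.971 in the others, and Rps2 was 12.990 in KO 2, below 13.106 to 13.131. Rps16 was 3.083 in WT 1, below 3.528 to 3.684 in the others, on the dimmest probe set of the 42. The median over the 42 genes had no such value in either group.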

How the results depend on the processing

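Under all 21 alternatives to the main fit, 0 of the 42 genes and 0 of all genes were called. The number of lower members went from 38 to 12 (of 22 measured) when only plain _at probe sets were allowed. Leaving out 1 array at a time gave 34 to 39 lower members and medians from -0.077 to -0.046. The replicate number as a block (replicate block) gave 38 lower members and a median of -0.059, with 0 called. Same-numbered arrays did not deviate together (r of -0.12, 0.24, -0.40, -0.27 and 0.01), so the numbers were not taken as pairs. Signs turned for Rps24 after another quantile normalization (0.004), with plain _at sets (0.150), with the muscle covariate (0.018) and without WT 5, KO 1 and KO 3 (0.005), an alternative chosen after seeing the data in which Rpsa was -0.001. Without WT 4 and WT 5, Rps2 was 0.002, Rps6 0.055 and Mrps15 -0.007. With the muscle covariate Rps25 was -0.030. With plain _at sets Btf3 was 0.006 and Mrpl52 -0.091, and when each gene's probe sets were averaged Eif5a2 was -0.020. Leaving out 1 array, Rps24 ranged from -0.025 to 0.012, Rps25 from -0.066 to 0.125, Rps2 from -0.041 to 0.001, Rps15 from -0.007 to 0.022 and Rpl39l from -0.077 to 0.341. The cause of these turns was not tested. RMA values carry no background call, so how far the dim probe sets lie above background is not known.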
